A study of Mus musculus with 6 samples.

Results

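The 46 genes described here encode proteins of the synaptic vesicle and of the machinery that docks, fuses and recovers it. They were chosen by name from a hand-written list, with earlier results of these data known. The rule uses no threshold on a measured value, and shares set beside those of all genes are descriptions only. Of the 46 genes, 22 encode vesicle proteins, 10 belong to the membrane fusion machinery, 9 to the active zone and 5 to endocytosis. All 46 were found among the 43346 genes of the count table by their Ensembl identifiers. The comparison between treatments covered the 10520 genes with at least 10 CPM (counts scaled to a total of 1000000 per library) in at least 3 libraries, and 44 of the 46 genes were among them. Sv2c and Syt2 were below this level.

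RNA-seq was performed on primary cortical cell cultures prepared from mouse fetuses at gestational day 15.5 and treated with vehicle (DMSO, written DSMO in the labels) or with 1 mM 10HDA, which is a royal jelly fatty acid. There were 6 libraries, and cultures 1, 3 and 4 each gave 1 vehicle library and 1 10HDA library. The labels give every library the strain Cyp19-EGFP, a line in which the aromatase gene's regulatory region drives a fluorescent reporter, and the genotype SRY+, whereas C57BL/6 embryos are named in the methods. The treatments therefore share their strain, age and genotype labels and differ in the compound added, and the length of the treatment is not given in the sources used here. RNA was taken from whole cultures on poly D-lysine, so each value sums over all the cells present, and a smaller number of cells of a type and less RNA per cell cannot be told apart.

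The libraries held 9144736 to 13367194 counts on genes, so that 3 counts correspond to 0.224 to 0.328 CPM. Both libraries of culture 1 went against their SRY+ label. There 4 genes of the Y chromosome (Uty, Kdm5d, Ddx3y and Eif2s3y) summed to 9.07 CPM with vehicle and 9.30 CPM with 10HDA, whereas the other 4 libraries had 97.8 to 136 CPM. Counts of genes called by the main tests, and values of some single genes, are therefore also given without culture 1. Overlaps between libraries, counts over cultures, ratios of related genes and tests scaled to neuron markers include it. Neuron markers were present as the tissue label implies, among them Tubb3, the neuronal tubulin, at 1859, 1502 and 1604 CPM in the vehicle libraries of cultures 1, 3 and 4. Of the 6 microglial markers listed, 1 (Tmem119) had no count in any of the 6 libraries. The list was low but not absent, summing to 0.934 to 1.099 CPM with vehicle and 0.664 to 1.009 CPM with 10HDA.

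Neurons store transmitter in synaptic vesicles, which dock at the active zone, a protein scaffold beneath the presynaptic membrane. There the vesicle SNARE protein synaptobrevin pairs with syntaxin and SNAP-25 of the cell membrane, complexin and Munc13 proteins ready the complex, and calcium binding to synaptotagmin triggers fusion. NSF and SNAP adaptor proteins then take the SNAREs apart, and dynamin and its partners retrieve the membrane by endocytosis.

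Across the 44 genes tested, most values were slightly lower with 10HDA in every class, and 1 gene, Sv2b, was lower by far more than the rest. With TMM scaling, 40 of the 44 genes had a lower mean with 10HDA and 4 a higher one, and the median log2 fold change was -0.20, or 13.1% lower. Over all 10520 genes tested the median was -0.0095 and 52.1% of genes were lower. In edgeR's quasi-likelihood test, adjusted by Benjamini-Hochberg over all genes at a threshold of 0.1, 1 of the 44 genes was lower, against 0.428% of all genes tested, and 0 were higher, against 0.2%. At an unadjusted p below 0.05, 15 of them were lower and 1 was higher, against 5.67% and 4.4% of all genes. The 1 gene past the threshold was Sv2b. Without culture 1 this fit called 0 of the 44 genes, against 0.0195% of all genes lower and 0% higher, and 11 were lower and 0 higher at an unadjusted p below 0.05, against 3.97% and 2.53%.

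The 2 libraries of a culture deviated together from their treatment means, so the comparison was also made with culture as a block. In this fit 13 of the 44 genes fell (Sv2b, Syn3, Cplx2, Snap25, Dnm1, Syn2, Slc17a7, Nsf, Syt1, Rph3a, Doc2b, Syn1 and Stx1a), against 5.08% of all genes tested, and 1 rose (Sypl), against 3.91%. The 3 libraries of each treatment did not overlap for 17 genes that were lower with 10HDA, against 7.44% of all genes, and for 1 that was higher, against 5.96%. Of the 44 genes, 22 were lower in 3 of 3 cultures, which is 50% against 20.8% of all genes tested. Without culture 1 the blocked fit called 14 of the 44 genes lower, against 4.97% of all genes, and 0 higher, against 3.52%. Without culture 4 it called 1 of them lower, Sv2b, against 1.68% of all genes, and 0 higher, against 1.79%. With a culture left out, the blocked fit rests on 2 cultures, which hardly allow the spread of a single gene to be estimated. Its p-values then rest on the spread shared over genes, so these calls are descriptions only.

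**Figure D1:**
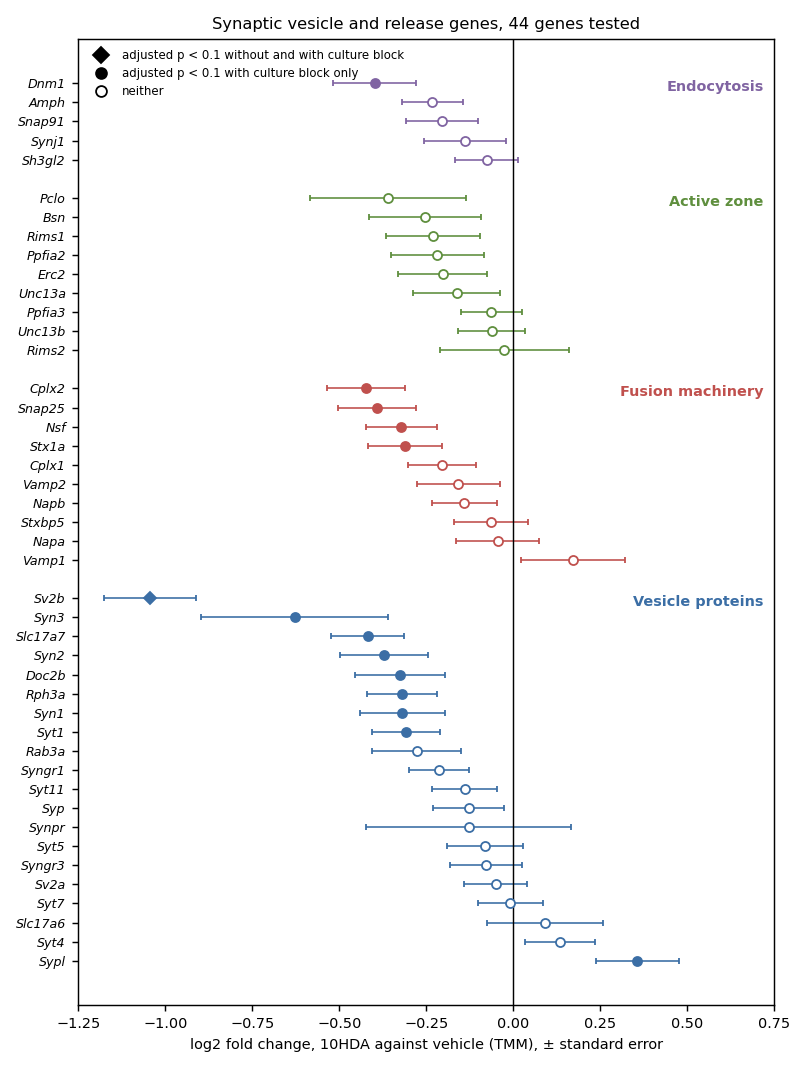
Log2 fold change of 10HDA against vehicle for the 44 genes tested, sorted within each class (points: TMM scaled edgeR estimate, bars: standard error, 3 libraries per treatment). Sv2b lies apart at -1.04, 40 genes lie below 0 with this scaling, and filled symbols mark genes past an adjusted p of 0.1 with culture as a block. On the scale of the shared neuron markers 23 genes lie below 0.

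The sign of the small differences depended on what the libraries were scaled to. With library size alone 33 genes were lower and 11 higher, with a median of -0.13. When the libraries were scaled to the 15 shared neuron markers, 23 genes were lower and 21 higher, the median was -0.0069, and the median of all genes tested moved by 0.20 to 0.19. Measured from the median of all genes, the median of the 44 genes was -0.19 under each of these scalings, under TMM, under DESeq2's size factors and under upper quartile scaling. Sv2b passed the threshold with each of these 5.

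The SV2 proteins are glycoproteins of the vesicle membrane with the fold of a sugar transporter. SV2A is the binding site of the antiepileptic drug levetiracetam, and all 3 proteins serve as receptors for botulinum neurotoxin A. Sv2b (ENSMUSG00000053025.9, chr7:75114894-75309262 of GRCm38, minus strand) had 131, 159 and 141 CPM in the vehicle libraries of cultures 1, 3 and 4, and 60.7, 83.1 and 65.2 CPM in the 10HDA libraries of the same cultures. Every 10HDA library was below every vehicle library. The means were 144 ± 14.1 CPM with vehicle and 69.7 ± 11.9 CPM with 10HDA (SD, n = 3 each). Sv2b fell by 51.5%, a log2 fold change of -1.04 (SE 0.13, edgeR adjusted p = 0.0149), and by log2 differences of -1.11, -0.94 and -1.12 within cultures 1, 3 and 4.

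Sv2b had the 8th lowest log2 fold change of the 10520 genes tested. The call was lost in the fit without a block on leaving out the vehicle library of culture 3 (edgeR adjusted p = 0.114), the 10HDA library of culture 1 (0.153), both libraries of culture 1 (0.12) or both libraries of culture 3 (0.135), while the log2 fold change stayed between -1.19 and -0.94 over all single libraries and cultures left out. With culture as a block it was -1.05 (SE 0.095, adjusted p = 1.47e-07), and it passed the threshold without each culture in turn.

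Sv2a (ENSMUSG00000038486.8, chr3:96181151-96195521, plus strand) had 280.0, 272 and 280.1 CPM with vehicle and 281, 271 and 252 CPM with 10HDA. The 2 treatments overlapped, and the log2 fold change was -0.050 (SE 0.091, edgeR adjusted p = 0.862), with a sign that turned to 0.027 with library size alone and to 0.15 on the neuron markers. Sv2c (ENSMUSG00000051111.11, chr13:95954594-96132577, minus strand) was the rarest of the family, with 2.75, 5.49 and 5.86 CPM with vehicle and 2.19, 2.21 and 3.48 CPM with 10HDA, from 30, 71 and 69 and 25, 30 and 31 counts. Its highest 10HDA library lay above its lowest vehicle library, that of culture 1. Sv2c was lower with 10HDA in 3 of 3 cultures, by log2 differences of -0.31, -1.26 and -0.70, and when the filter was lowered to 1 CPM so that it could be tested its log2 fold change was -0.86 (standard error 0.30, adjusted p = 0.36 from edgeR).

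**Figure D2:**
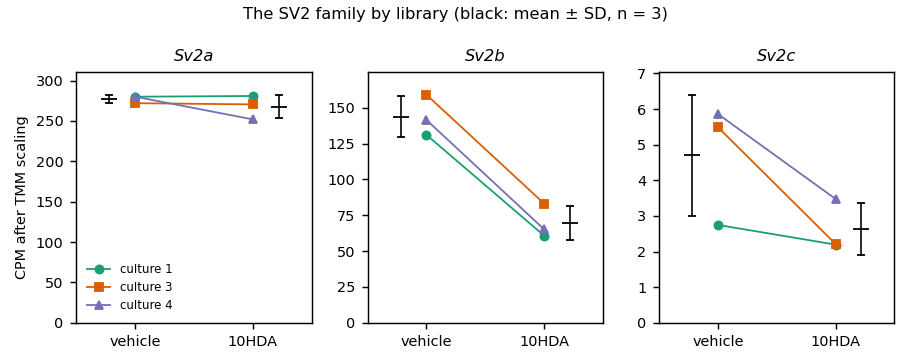
CPM after TMM scaling of the 3 SV2 genes in each library, with lines joining the vehicle and 10HDA libraries of a culture and black marks for mean ± SD (n = 3). The vertical scales differ between panels. Sv2b falls in each culture, Sv2a stays between 252 and 281 CPM in all 6 libraries, and Sv2c does not exceed 5.86 CPM.

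Within a library the scaling cancels, so the genes of the family were also compared as log2 ratios of their counts. The ratio of Sv2b to Sv2a was -1.10, -0.77 and -0.99 in the vehicle libraries of cultures 1, 3 and 4 and -2.21, -1.70 and -1.95 in the 10HDA libraries. The treatments did not overlap. The difference was -1.003 (ratio of ratios 0.499), and -1.11, -0.93 and -0.97 within the cultures, with p = 0.1 in an exact two-sided permutation test of 3 against 3 libraries, which is the smallest p this design allows, and 0.6 after adjustment over the 16 pairs of related genes compared. The ratio of Sv2b to Sv2c was 5.58, 4.86 and 4.59 with vehicle and 4.79, 5.23 and 4.23 with 10HDA. Here the treatments overlapped, the difference was -0.26 (exact permutation p = 0.6, adjusted 0.75), and the differences within cultures were -0.79, 0.38 and -0.36, so that Sv2b and Sv2c could not be separated at the depth of Sv2c. Per base of transcript, Sv2b made up 27.4%, 31.8% and 28.7% of the SV2 total in the vehicle libraries of cultures 1, 3 and 4, and 14.8%, 19.8% and 17.2% in the 10HDA libraries. The share of Sv2a was 66.8% to 71.9% with vehicle and 79.5% to 84.5% with 10HDA, and that of Sv2c was 0.676% to 1.52% over all 6 libraries.

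The bases just before the annotated starts of the 3 genes are shown because Sv2b changed and Sv2a did not pass the test, and because the sequences differ in base composition. They are from RefSeq promoter windows of GRCm38.p6, cut at the GENCODE M21 gene start, and read 5′ to 3′ on the strand of the gene. Capitals mark the GC box GGGCGG on either strand, a binding motif of SP family factors. The stretches are chr3:96180977-96181150 (plus strand, 174 bases, 61.5% G and C) for Sv2a, chr7:75309263-75309512 (minus strand, 250 bases, 48.8%) for Sv2b and chr13:96132578-96132827 (minus strand, 250 bases, 70.8%) for Sv2c.
Sv2a: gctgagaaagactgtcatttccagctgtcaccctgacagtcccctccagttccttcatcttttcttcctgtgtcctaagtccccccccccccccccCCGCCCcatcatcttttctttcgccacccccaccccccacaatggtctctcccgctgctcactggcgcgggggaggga
Sv2b: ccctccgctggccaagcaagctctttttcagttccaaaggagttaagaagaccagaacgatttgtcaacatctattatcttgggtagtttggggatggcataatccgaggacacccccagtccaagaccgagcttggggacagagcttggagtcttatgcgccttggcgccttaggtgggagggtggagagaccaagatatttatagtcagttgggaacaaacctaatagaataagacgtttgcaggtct
Sv2c: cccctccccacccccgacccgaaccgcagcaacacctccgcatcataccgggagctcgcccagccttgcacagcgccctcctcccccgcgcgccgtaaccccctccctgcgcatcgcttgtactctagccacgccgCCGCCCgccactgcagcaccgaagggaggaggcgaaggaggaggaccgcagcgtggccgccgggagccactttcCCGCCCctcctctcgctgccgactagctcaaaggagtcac
The Sv2b stretch held 0 GC boxes, that of Sv2a 1 and that of Sv2c 2, and none of the 3 held the cyclic AMP response element TGACGTCA or its core TGACG. RefSeq lists 4 promoter windows for Sv2b and 1 each for the other 2 genes, and the stretch shown is from the window at the annotated start of the gene. Promoter windows of 300 bases were matched for 37 of the 46 genes (50 windows, both strands searched). The GC box was in 66.0% of these windows, 65.0% of the windows of all genes tested and 35.7% of all RefSeq windows. TGACGTCA was in 6.0% of them (Napa, Sh3gl2 and Syn1), against 3.29% and 1.79%, and TGACG, which includes every TGACGTCA, in 24.0%, against 32.2% and 20.8%. These matches describe letters in a window and are not binding sites.

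Of the 22 vesicle protein genes, 20 were tested, and 17 were lower and 3 higher with TMM scaling (median log2 fold change -0.18), whereas 10 were lower and 10 higher on the neuron markers (0.020). The 3 synapsin genes encode phosphoproteins that hold the reserve pool of vesicles together, and all 3 fell in the blocked fit. Syn3 had 22.2, 43.2 and 53.7 CPM in the vehicle libraries of cultures 1, 3 and 4 and 20.005, 26.4 and 30.9 CPM in the 10HDA libraries. The vehicle library of culture 1 was below 2 of the 10HDA libraries, so the treatments overlapped although each culture was lower with 10HDA. Its log2 fold change was -0.63 (SE 0.27, edgeR adjusted p = 0.465), and -0.57 (SE 0.12, adjusted p = 0.00505) with culture as a block. Syn3 shares 14.1% of its annotated exon bases with Timp3 on the opposite strand, and since the strand setting of the counting is not given in the sources used here, reads in this part cannot be assigned with certainty. Of the 46 genes, 16 share exon bases with another gene, by 0.273% for Syn1 to 22.3% for Ppfia2, whose partner Acss3 did not exceed 0.0916 CPM. For Sv2b the share is 0.561%. Timp3 itself had 16.3, 23.3 and 24.6 CPM with vehicle and 16.4, 17.6 and 19.5 CPM with 10HDA, a log2 fold change of -0.27 (edgeR adjusted p = 0.60).

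Syn2 had 164, 173 and 139.8 CPM with vehicle and 123, 141 and 104 CPM with 10HDA, with overlap through culture 4, whose vehicle library was below the 10HDA library of culture 3. Its log2 fold change was -0.37, with an adjusted p from edgeR of 0.362 and of 0.0129 with culture as a block. Syn1 had 327, 333 and 437 CPM with vehicle and 284, 289 and 307 CPM with 10HDA. Its treatments did not overlap, the vehicle library of culture 4 was the highest, and the log2 fold change was -0.32 (edgeR adjusted p = 0.426, 0.0565 with the block).

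The synaptotagmins are membrane proteins whose C2 domains bind calcium and lipid. Syt1, the fast calcium sensor of release, had 372, 416 and 412 CPM with vehicle and 327, 302 and 339 CPM with 10HDA. Every 10HDA library was below every vehicle library, and the log2 fold change was -0.31 (edgeR adjusted p = 0.311, 0.0495 with the block). Syt7, a slower sensor with high calcium affinity, had a log2 fold change of -0.0082. In the same libraries the log2 ratio of Syt7 to Syt1 was -0.56, -0.63 and -0.51 with vehicle and -0.27, -0.14 and -0.38 with 10HDA. These values did not overlap, the difference was 0.30 (exact permutation p = 0.1, the smallest possible, and 0.6 adjusted over the 16 pairs), and it was 0.29, 0.49 and 0.13 within cultures 1, 3 and 4.

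The other synaptotagmins tested did not pass the threshold. Syt11, a family member that does not bind calcium, had a log2 fold change of -0.14 with no overlap between treatments, and Syt5, a member found on dense core vesicles, had -0.081. Syt4, another dense core vesicle protein, had a log2 fold change of 0.13, being higher in cultures 1 and 4 and lower in culture 3. Syt2, the fast sensor of hindbrain and inhibitory synapses, had only 5, 26 and 9 counts with vehicle and 16, 22 and 14 with 10HDA and was not tested.

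The synaptophysins and synaptogyrins are small proteins that cross the vesicle membrane several times. Sypl, which encodes a synaptophysin-like protein also found outside neurons, was the gene that rose in the blocked fit. It had 22.2, 23.9 and 21.6 CPM with vehicle and 29.7, 26.8 and 30.3 CPM with 10HDA, so that every 10HDA library was above every vehicle library. The log2 fold change was 0.36 (SE 0.12, edgeR adjusted p = 0.356), and 0.35 (SE 0.12, adjusted p = 0.0740) with culture as a block. Without culture 1 the blocked adjusted p was 0.16. Syp, the synaptophysin of neurons, had a log2 fold change of -0.13, and its 3 relatives Synpr, Syngr1 and Syngr3 had -0.13, -0.21 and -0.079. Of these 4, Syngr1 was the gene without overlap, with 234, 231 and 237 CPM against 202, 205 and 199, and its adjusted p was 0.450 from edgeR and 0.182 with the block.

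Rab3a, a small GTPase on the vesicle, and the C2 domain proteins Rph3a and Doc2b had log2 fold changes of -0.28, -0.32 and -0.33. Rph3a, which encodes the Rab3 effector rabphilin, had 80.2, 84.2 and 93.5 CPM with vehicle and 66.2, 69.2 and 71.3 CPM with 10HDA, without overlap (edgeR adjusted p = 0.311, 0.0552 with the block). Without culture 1 the blocked fit did not call Rph3a (adjusted p = 0.104). Doc2b, a calcium sensor linked to spontaneous release, had 57.9, 60.4 and 68.3 CPM with vehicle and 47.8, 43.0 and 58.4 CPM with 10HDA. The 10HDA library of culture 4 lay above the vehicle library of culture 1, and the adjusted p was 0.436 from edgeR and 0.0553 with the block. Rab3a did not pass either fit (edgeR adjusted p = 0.4997 and 0.142) and was lower in cultures 1 and 4 alone.

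The vesicular glutamate transporters, which load glutamate into vesicles, had fold changes of opposite sign with TMM scaling. Slc17a7, which encodes VGLUT1, the transporter of cortical projection neurons, had 65.7, 70.4 and 75.2 CPM with vehicle and 50.2, 57.2 and 50.5 CPM with 10HDA. The treatments did not overlap, and the log2 fold change was -0.42 (SE 0.11, edgeR adjusted p = 0.183), with an adjusted p of 0.0132 with the block. DESeq2's Wald test called it as well. Slc17a6, which encodes VGLUT2, had 24.0, 27.8 and 30.2 CPM with vehicle and 30.7, 22.3 and 34.9 CPM with 10HDA, a log2 fold change of 0.091 (edgeR adjusted p = 0.864) and was higher with 10HDA in cultures 1 and 4 and lower in culture 3. The log2 ratio of Slc17a7 to Slc17a6 changed by -0.50 (exact permutation p = 0.3), and by -0.74, 0.019 and -0.78 within cultures 1, 3 and 4, so the difference between the transporters was not beyond the spread of the libraries.

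Of the 10 fusion genes, 9 were lower and 1 higher with TMM scaling (median -0.18), and 5 were lower and 5 higher on the neuron markers (0.019). The 4 that fell in the blocked fit included 2 of the 4 SNARE genes. Snap25, a SNARE of the presynaptic membrane, had 457, 362 and 424 CPM in the vehicle libraries of cultures 1, 3 and 4 and 330.0, 291 and 327 CPM in the 10HDA libraries. Stx1a, its partner syntaxin, had 235, 188 and 213 CPM with vehicle and 167, 182 and 163 CPM with 10HDA. In neither gene did the treatments overlap, although in culture 3 Stx1a differed little between its 2 libraries. The log2 fold changes were -0.39 for Snap25 (edgeR adjusted p = 0.267, 0.0111 with the block) and -0.31 for Stx1a (adjusted p = 0.360 and 0.0642). Without culture 1 the blocked fit did not call Stx1a (adjusted p = 0.34).

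The vesicle SNAREs did not follow Snap25 and Stx1a past the threshold. Vamp2, the main synaptobrevin of the forebrain, had a log2 fold change of -0.16, with differences of -0.27, 0.095 and -0.27 in cultures 1, 3 and 4. Vamp1, its relative of spinal and motor synapses, had 0.17, close to the filter at 13.004, 11.0 and 11.2 CPM with vehicle and 13.8, 14.4 and 11.2 CPM with 10HDA.

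Complexins clamp and then promote SNARE fusion. Cplx2 had 319.5, 337 and 384 CPM with vehicle and 228, 273 and 275 CPM with 10HDA, so every 10HDA library was below every vehicle library. Its log2 fold change was -0.42 (SE 0.11, edgeR adjusted p = 0.226), with an adjusted p of 0.00581 with the block. Cplx1 had a log2 fold change of -0.20, also without overlap, though in culture 3 its difference was -0.0025 (edgeR adjusted p = 0.512, 0.235 with the block). Stxbp5, which encodes tomosyn, an inhibitor that occupies syntaxin, had -0.063.

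Nsf, the ATPase that takes used SNARE complexes apart, had 195, 192 and 214 CPM with vehicle and 153, 149.9 and 178 CPM with 10HDA. The treatments did not overlap, and the log2 differences within cultures 1, 3 and 4 were -0.35, -0.35 and -0.27. The adjusted p was 0.311 from edgeR and 0.0343 with the block. Its adaptors Napa and Napb, the alpha and beta SNAPs, had log2 fold changes of -0.045 and -0.14 and did not pass.

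**Figure D3:**
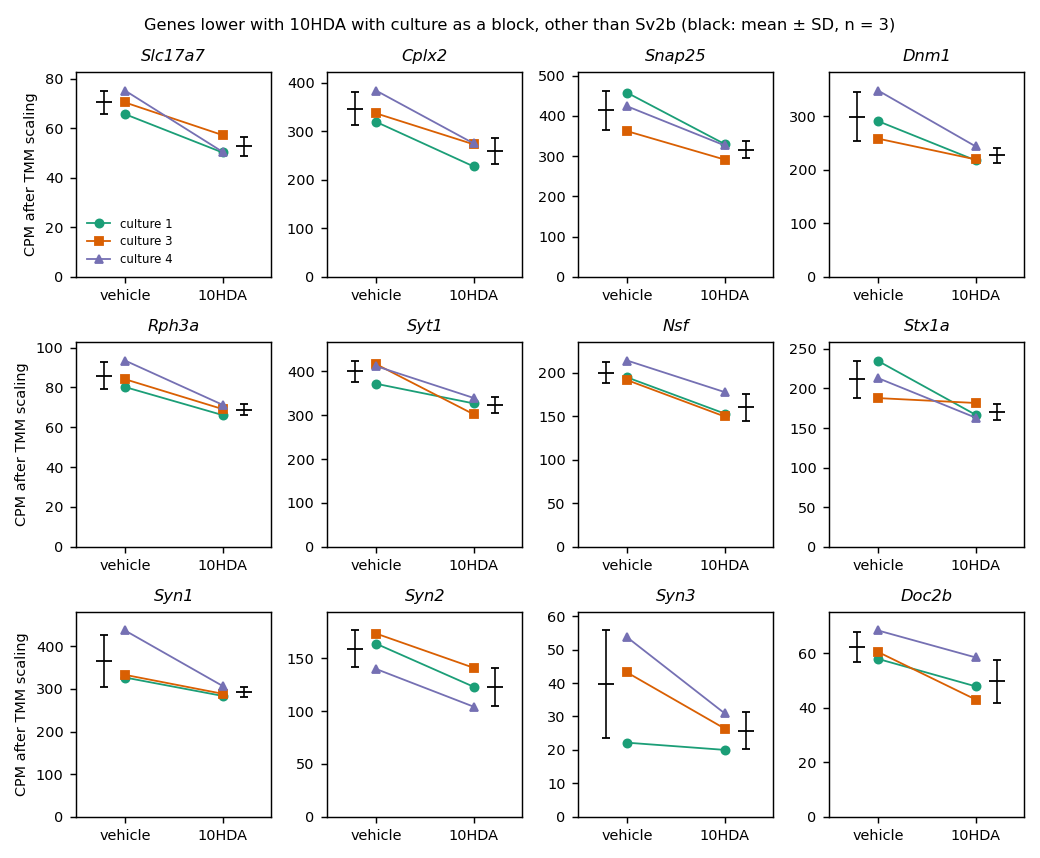
CPM after TMM scaling in each library for the 12 genes other than Sv2b that fell with culture as a block, with lines joining the libraries of a culture and black marks for mean ± SD (n = 3). Each vertical axis starts at 0, and every line goes down from vehicle to 10HDA, by as little as a log2 difference of -0.048 for Stx1a in culture 3. On the neuron marker scale with the block, 3 of the 12 (Syn3, Cplx2 and Slc17a7) were called lower, against 1.93% of all genes. Slc17a7 lay close to the threshold (adjusted p = 0.0996 from edgeR).

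The 9 active zone genes were all lower with TMM scaling (median -0.20), with 6 lower on library size alone and 5 on the neuron markers. In edgeR's test 0 were called lower without the block, against 0.428% of all genes, and 0 with it, against 5.08%. At an unadjusted p below 0.05, 0 were lower without the block, against 5.67% of all genes, and 4 with it, against 11.0%. DESeq2 called 0 of them, against 1.06% of all genes lower. Rims1, a scaffold that links vesicles to calcium channels, had 98.5, 126 and 138 CPM with vehicle and 98.7, 94.2 and 117 CPM with 10HDA. Unc13a, which encodes Munc13-1, the protein that primes vesicles, had 358, 428 and 496 CPM with vehicle and 369, 366 and 409 CPM with 10HDA. The vehicle library of culture 1 lay within the range of the 10HDA libraries for Rims1 and below all of them for Unc13a, so the treatments overlapped. The log2 fold changes were -0.23 for Rims1 (edgeR adjusted p = 0.576, 0.200 with the block) and -0.16 for Unc13a (adjusted p = 0.665 and 0.400), and that of Unc13a turned to 0.035 on the neuron markers.

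Culture 1 differed from the other 2 in this class. In culture 1, 2 of the 9 active zone genes were lower with 10HDA and the median log2 difference was 0.046, against 9 of 9 and -0.29 in culture 3 and 8 of 9 and -0.17 in culture 4. The vehicle library of culture 1 stood out for the largest scaffold genes. Bsn, which encodes Bassoon, had 285, 407 and 479.7 CPM with vehicle and 308, 332 and 343 CPM with 10HDA, and Pclo, which encodes Piccolo, had 143, 243 and 294 CPM with vehicle and 165, 149 and 216 CPM with 10HDA. That library was the lowest of all 6 for Bsn and for Pclo. Without culture 1 the blocked fit called Pclo (log2 fold change -0.56, adjusted p = 5.49e-05 from edgeR), Bsn (-0.37, adjusted p = 0.017) and Rims1 (-0.31, adjusted p = 0.081). This fit used cultures 3 and 4 alone, and its p-values rest on the spread shared over genes rather than that of each gene.

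The remaining active zone genes had small fold changes. Erc2, which encodes ELKS2, had -0.20, and the liprins Ppfia2 and Ppfia3, which recruit scaffolds to the terminal, had -0.22 and -0.063. Unc13b and Rims2, the relatives of Unc13a and Rims1, had -0.062 and -0.026. Ppfia3 alone of the 9 had treatments that did not overlap, at 150.4, 157 and 162 CPM with vehicle and 149.9, 149 and 150.3 CPM with 10HDA.

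All 5 endocytosis genes were lower with TMM scaling (median -0.21) and with library size alone, whereas 3 were lower on the neuron markers. Dnm1, which encodes dynamin 1, the GTPase that cuts vesicles from the membrane, had 291, 258 and 348 CPM with vehicle and 218, 219.7 and 244 CPM with 10HDA. Every 10HDA library was below every vehicle library, and the log2 fold change was -0.40 (edgeR adjusted p = 0.296, 0.0122 with the block). Amph, which encodes amphiphysin, a membrane-bending partner of dynamin, had 158, 160.1 and 171 CPM with vehicle and 141, 137 and 138 CPM with 10HDA. It too did not overlap, with a log2 fold change of -0.23 (edgeR adjusted p = 0.419, 0.147 with the block). Snap91, the clathrin adaptor AP180, had -0.21, the lipid phosphatase gene Synj1 -0.14 and the endophilin gene Sh3gl2 -0.077, and none of these 3 passed either fit.

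The classes were close to each other. The medians of the vesicle, fusion, active zone and endocytosis genes were -0.18, -0.18, -0.20 and -0.21, and the SD of a class median over the 3 cultures was 0.0099 for the vesicle genes, 0.083 for the fusion genes, 0.17 for the active zone genes and 0.077 for the endocytosis genes. The differences between the class medians are smaller than the larger of these SDs, and no test between classes was made. Within cultures 1, 3 and 4 the medians were -0.20, -0.19 and -0.21 for vesicle genes, -0.29, -0.14 and -0.27 for fusion genes and -0.10, -0.23 and -0.24 for endocytosis genes.

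**Figure D4:**
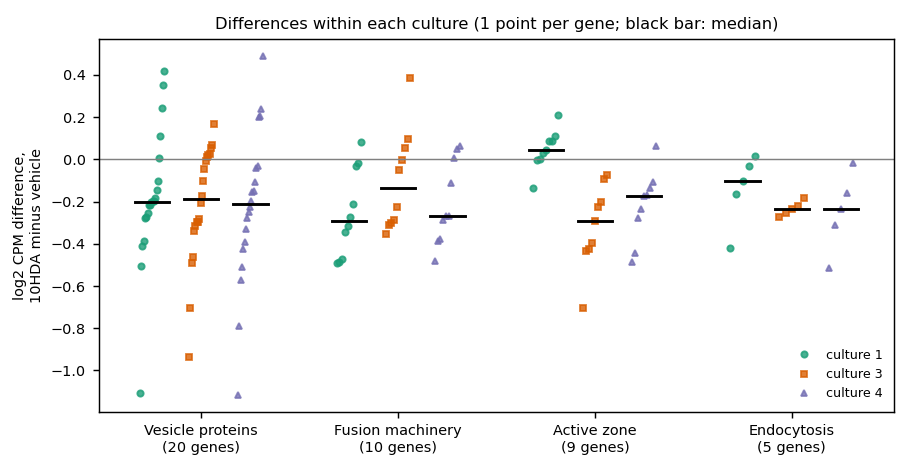
Log2 CPM difference of 10HDA minus vehicle within each culture (TMM scaling), 1 point per tested gene and a black bar at the median of each class and culture. Medians lie between -0.29 and -0.10 except for the active zone in culture 1, at 0.046, and Sv2b is the lowest point of the vesicle class in all 3 cultures. On the neuron markers the class medians over all libraries lie between -0.0090 and 0.020.

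Of the 16 pairs of related genes compared within libraries, 2 had treatments that did not overlap, Sv2b to Sv2a and Syt7 to Syt1, and the adjusted exact permutation p was 0.6 or more for all 16. The log2 ratio of Vamp1 to Vamp2 was higher with 10HDA in 3 of 3 cultures, by 0.35, 0.29 and 0.27, and that of Cplx1 to Cplx2 by 0.17, 0.30 and 0.19, with exact permutation p = 0.3 and 0.2 and overlapping libraries. For Syn2 to Syn1, Syn3 to Syn1, Napb to Napa and Pclo to Bsn the differences were -0.072, -0.24, -0.10 and -0.092, and the sign differed between cultures.

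Per kilobase of transcript, the levels of the 46 genes in vehicle libraries ranged widely. Vamp2 was the highest at 208 CPM per kilobase, followed by Rab3a (132), Syt11 (124), Syn1 (111), Syt4 (108) and Syngr3 (104). From Rab3a to Syngr3, neighbours in this order were closer to each other than the SD of the 3 vehicle libraries of at least 1 of the pair. The lowest were Syt2 (0.141), Sv2c (1.06), Vamp1 (1.34), Synpr (1.87), Sypl (2.99) and Syn3 (3.23). Sv2b, at 25.2 CPM per kilobase, ranked 27th and Sv2a, at 59.8, ranked 12th. The genes with the largest fold changes thus included abundant ones (Snap25, rank 11, and Cplx2, rank 10) and rare ones (Syn3, rank 41).

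Another 79 genes of vesicle release and recycling, from a hand-written list, were examined in the same way. Of these, 78 were found in the count table and 60 were tested, and with TMM scaling 47 were lower and 13 higher (median log2 fold change -0.10), against 36 and 24 with library size alone and 16 and 44 on the neuron markers. In edgeR's test 0 passed the threshold, against 0.428% of all genes lower and 0.2% higher. At an unadjusted p below 0.05, 13 were lower and 0 higher, against 5.67% and 4.4% of all genes. With culture as a block 10 fell and 0 rose, against the 5.08% and 3.91% of all genes given above. The 3 smallest p-values belonged to Syt6, a synaptotagmin (17.5 ± 0.917 CPM with vehicle and 12.6 ± 0.944 CPM with 10HDA, SD, n = 3 each, log2 fold change -0.46, adjusted p = 0.256 from edgeR), to Rab3b, a relative of Rab3a (-0.39, adjusted p = 0.312), and to Syt13 (-0.61, adjusted p = 0.316).

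Markers of cell types differed between the treatments along with these genes. With TMM scaling the 15 tested markers shared by neurons had a median log2 fold change of -0.20, as did the release genes, and 13 of them were lower. Their summed level was 13431 to 14305 CPM in the vehicle libraries and 11498 to 12539.9 CPM in the 10HDA libraries, so these sums did not overlap. Markers of excitatory neurons had a median of -0.16 (10 of 12 lower and 1 past the threshold, summed 1804 to 2199 CPM with vehicle and 1623 to 1872 with 10HDA), and markers of interneurons a median of -0.21 (10 of 11 lower, summed 615 to 762 and 514 to 689 CPM). Astrocyte markers had a median of -0.62 (-0.42 on the neuron markers), with 8 of 10 lower, 5 of them past the threshold in edgeR's test, and sums of 906 to 1124 CPM with vehicle and 667 to 796 CPM with 10HDA. Of all genes tested, 0.428% were lower past this threshold. Radial glia markers had -0.095 (6 of 8 lower), oligodendrocyte lineage markers -0.17 (5 of 8 lower, with Cspg4 past the threshold at -0.92), dividing cell markers 0.092 (1 of 4 lower) and intermediate progenitor markers 0.66 (0 of 3 lower). The lowest oligodendrocyte lineage marker, at -1.44, did not pass. Of the endothelial and pericyte markers 1 was tested, the pericyte receptor Pdgfrb (log2 fold change -1.07, edgeR adjusted p = 0.0428). It had 15.2 to 16.1 CPM in the vehicle libraries and 6.17 to 9.66 CPM in the 10HDA libraries. Pdgfrb passed the filter of 10 CPM through its vehicle libraries alone, so this p-value is not taken as support for a fall. Of the microglial markers 0 were tested. The part of these shifts in the levels of the release genes was not tested.

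Scaled to the shared neuron markers with culture as a block, the release genes split evenly, 22 lower and 22 higher, and 4 were called lower and 3 higher. Sv2b was still lower (log2 fold change -0.86, adjusted p = 1.75e-05 from edgeR), as were Syn3 (-0.38, adjusted p = 0.035), Cplx2 (-0.23, adjusted p = 0.067) and Slc17a7 (-0.22, adjusted p = 0.0996). Sypl (0.55, adjusted p = 0.0036), Syt4 (0.33, adjusted p = 0.019) and Vamp1 (0.36, adjusted p = 0.061) were higher. On this scale, which takes the level of the neuron markers as fixed, 203 of the 10520 genes were called lower and 4003 higher.

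**Figure D5:**
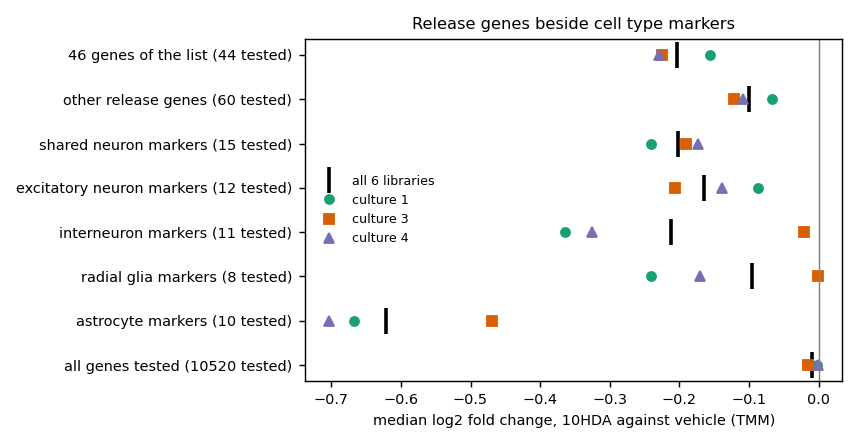
Median log2 fold change of 10HDA against vehicle (TMM scaling) for the release genes, the other release genes and lists of cell type markers, over all 6 libraries (black bars) and within each culture (points). The release genes, at -0.20, lie at the median of the shared neuron markers, the astrocyte markers lie lower at -0.62, and all genes tested lie at -0.0095. On the neuron marker scale the median of the release genes is -0.0069.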

How the data were processed

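Libraries were compared as labelled, 3 vehicle and 3 10HDA. Per the methods and the submitters' processing notes, the authors aligned untrimmed 50 bp single-end reads to mm10 with Subjunc (Subread 1.4.4) and counted them with featureCounts over Gencode annotation. What they deposited is 1 raw count per gene and library, neither normalized nor filtered. Identifiers were matched to GENCODE M21 symbols (98.0% matched). Counts were TMM scaled and tested by edgeR's quasi-likelihood functions glmQLFit and glmQLFTest (edgeR 4.0.16, R 4.3.3), for genes of at least 10 CPM in at least 3 libraries, with Benjamini-Hochberg adjustment over all 10520 genes, a threshold of 0.1 and no culture term, as the authors' methods name none. Standard errors are the log2 fold change over the square root of F. CPM are scaled to a total of 1000000 over the tested genes after TMM. Log2 ratios of related genes were compared by exact permutation tests (scipy 1.17.1). The scripts were tested on simulated data.

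The labels give each culture 1 library of each treatment, which pairs them. As genes are no independent replicates, this serves as a description only: across genes, the correlation of deviations from treatment means was 0.37 in culture 1, 0.23 in culture 3 and 0.62 in culture 4, and -0.45 to 0.18 between cultures. Other scalings (upper quartile, DESeq2's size factors, library size alone and the shared neuron markers), other tools (DESeq2 1.42.0 and limma-voom from limma 3.58.1), other filters, a threshold of 0.05, culture as a block, and each library or culture left out were tried. The block combined with a left-out culture or with the neuron marker scale was added after the data were seen. With a culture left out, the block leaves 1 residual degree of freedom, so p-values of these fits rest on the spread shared over genes.

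The members, the other lists and the pairs were chosen with earlier results of these data known. Values in every library are given for the SV2 genes, for each gene past the threshold without or with the block, and for the gene of smallest p in each role, and for some further genes chosen after their values were seen (Syngr1, Slc17a6, Vamp1, Bsn, Pclo, Ppfia3 and Amph). Standard errors and SDs cover the spread between libraries as well as counting error.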

Additional observations from a re-analysis of the deposited data

How the results depend on the processing

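With 3 libraries per treatment, the number of genes called rests on how the spread is estimated. Genes called lower with 10HDA, 1 in edgeR's test without a block, numbered 4 with DESeq2's Wald test, 9 with no filter (Sv2c included), 13 with the replicate block, 0 to 2 when single libraries were left out, 0 without culture 1 and 0 without culture 3. With the replicate block they numbered 14 without culture 1, 13 without culture 3 and 4 on the neuron marker scale. Calls over all genes moved along, with 45 lower without a block, 112 with DESeq2's Wald test and 342 of 26859 with no filter. They numbered 0 to 173 (0% to 1.66%) when single libraries were left out, 2 without culture 1 and 0 without culture 3. With the replicate block 534 (5.08%) were lower, 509 (4.97%) without culture 1, 600 (5.86%) without culture 3 and 203 (1.93%) on the neuron marker scale. Genes called higher, 0 without the block, numbered 1 with the replicate block, 1 with it and without culture 3, and 3 with it on the neuron marker scale. Over all genes, 411 (3.91%), 489 (4.78%) and 4003 (38.1%) were called higher in these blocked fits. The block changed no other call among the 44 genes. The cause of these differences was not tested.

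The median over the 44 genes (-0.20) was -0.13 with library size alone, -0.0069 on the neuron marker scale, -0.21 to -0.11 with single libraries left out, and with the replicate block -0.15 without culture 3 and -0.00090 on the neuron marker scale. The vesicle median (-0.18) was -0.16 with DESeq2's size factors, DESeq2's Wald test, filterByExpr and a filter of 1 CPM, -0.15 with upper quartile scaling, -0.10 with library size alone and 0.020 on the neuron marker scale. It was -0.23 to -0.12 with single libraries left out, -0.13, -0.21 and -0.19 without cultures 1, 3 and 4, and with the replicate block -0.11, -0.21 and -0.19 without these cultures and 0.019 on the neuron marker scale. The fusion median (-0.18) was -0.10 with library size alone, 0.019 on the neuron marker scale (0.021 with the block), -0.25 to -0.13 with single libraries left out, and -0.28 without culture 3, with and without the block. The active zone median (-0.20) was -0.13 with library size alone, -0.0089 on the neuron marker scale (0.0031 with the block), -0.13 without culture 3 (-0.11 with the block), -0.11 without culture 4 (-0.085 with the block) and -0.28 to -0.060 with single libraries left out. The endocytosis median (-0.21) was -0.13 with library size alone, -0.0090 on the neuron marker scale (-0.0074 with the block) and -0.23 to -0.12 with single libraries left out. The difference in the log2 ratio of Sv2b to Sv2a (-1.003) was -1.13 to -0.88 and that of Sv2b to Sv2c (-0.26) was -0.50 to 0.026 with single libraries left out.

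Sv2a turned from -0.050 to 0.027 with library size alone, 0.15 on the neuron marker scale (0.14 with the block) and 0.0042 without culture 4 (0.0041 with the block), and Unc13a turned to 0.035 on the neuron marker scale (0.044 with the block). Of the 44 genes, 33 to 40 were lower under every setting other than the neuron marker scale, on which 23 were lower (22 with the block). Sv2c, with 30 to 71 counts a library in the vehicle libraries of cultures 1 and 3, and Syt2 are limited by depth.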
